A study of Mus musculus with 30 samples.

Results

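The transcripts of 9 genes of the Jak and STAT pathway were followed in mouse B cells that differ in Irf4. They were the 6 STAT genes Stat2, Stat3, Stat4, Stat5a, Stat5b and Stat6 and the 3 kinase genes Jak1, Jak2 and Jak3. Every probe set annotated to one of these symbols alone was taken, which gave 19 of 45037 probe sets, and all 19 passed the filter on dim signal. A further 2 sets that list Jak3 with Insl3 were left out. Other members of both families are not analysed here.

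Resting mature B cells had been enriched from spleens of C57BL/6, B1-8i mice. KO cells came from Irf4-/- mice that carry an inducible Irf4 gene, which doxycycline (DOX) switches on, and WT cells came from Irf4+/+ mice. KO cells were measured unstimulated at day 0, and at days 1 and 3 with zero DOX, low DOX (16 ng/mL) or high DOX (100 ng/mL), so that KO cells with DOX also express Irf4. WT cells were measured at days 0, 1 and 3. After day 0, cultures were stimulated through CD40L together with the cytokines IL-2, IL-4 and IL-5. There were 3 Affymetrix arrays in each of the 10 groups, 30 in all, and precision is limited by that number. The series text gives the replicates of a group as separate mice, but same-numbered KO arrays of different groups deviated together (63 of 63 pairs), so 30 arrays need not be 30 mice. The promoter and the cells that drive the inducible gene are not given in the sources used here. By sex-linked transcripts, all 14 arrays of KO replicates 1 and 2 were male, while the 7 arrays of KO replicate 3 and all 9 WT arrays were female, so sex and genotype are partly confounded.

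Jaks are kinases bound to the inner side of cytokine receptors. When a cytokine brings receptor chains together, the Jaks phosphorylate the receptor and then the STAT proteins, which pair up, enter the nucleus and bind DNA. In B cells IL-4 acts mainly through Jak1, Jak3 and Stat6, IL-2 through Jak1, Jak3 and the Stat5 proteins, and IL-5 through Jak2 and the Stat5 proteins, so all 3 added cytokines use this pathway. Only transcripts were measured here, not phosphorylation.

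Values are log2(intensity + 16). A difference subtracts the second-named group from the first on that scale. SE is limma's standard error and SD the spread of 3 arrays. A gene is called changed, or said to have risen or fallen, where limma's Benjamini-Hochberg adjusted p over all 26095 tested probe sets was under 0.05. Each gene is read by its probe set of highest mean, and shares over all genes refer to 12183 genes read in the same way. Levels of different genes are not compared, since their probes differ.

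The B cell label held by its markers, among them Ms4a1 at 13.47 to 14.06 and Cd79b at 13.36 to 13.97 over the 30 arrays. Cd74 (13.73 to 14.25), Blnk (12.65 to 13.31), Cd22 (12.35 to 13.51) and Pax5 (9.32 to 10.59) also kept to narrow ranges. Cd79a (11.35 to 13.90), Fcer2a (10.99 to 13.73) and Cr2 (8.74 to 13.21) varied more. With high against zero DOX at day 3, all 9 tested B cell markers fell, where 23.8% of all genes fell. Doxycycline was read by 1 of the 2 Irf4 probe sets, which at day 3 averaged 7.50 ± 0.17 in KO cells given zero DOX, 13.01 ± 0.076 at the low dose and 13.58 ± 0.068 at the high dose (SD, n = 3 each), against 7.32 ± 0.081 in WT cells. In WT cells this set stayed between 7.23 and 8.07, near the level of KO cells with zero DOX. The other Irf4 set was bright in both genotypes, at 12.65 ± 0.20 in KO cells and 13.17 ± 0.043 in WT cells at day 0, and at 11.10 ± 0.29 in KO cells with zero DOX and 10.82 ± 0.052 in WT cells at day 3 (SD, n = 3 each). Neither set showed a loss of Irf4 in KO cells, and no label says how their probes lie relative to the deleted stretch, so they check the dose and not the genotype. Among the day 1 arrays, 2 did not match their labels: the array labelled KO zero DOX replicate 2 stood at 10.77 while its group mates stood at 7.84 and 7.80, and the array labelled KO low DOX replicate 2 stood at 7.69 while its group mates stood at 11.17 and 10.89. Called results of the 9 transcripts that rest on these arrays are also given without them, where the call or the value changed. Markers of other cells were also higher in KO cultures without DOX: at day 3 the summed intensity of 13 myeloid markers ran from 8671 to 16534 in KO cells given zero DOX, 3581 to 6102 at the low dose and 1907 to 2629 at the high dose, against 1900 to 2287 in WT cells. Before stimulation, at day 0, this sum ran from 7092 to 17593 in KO cells, against 2946 to 3170 in WT cells. At day 1 it ran from 5657 to 8021 in KO cells with zero DOX, against 1978 to 2289 in WT cells. All 13 myeloid markers were tested, and their part in the differences below was not tested. In such bulk samples, fewer cells of a type and less RNA per cell cannot be told apart.

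**Figure D1:**
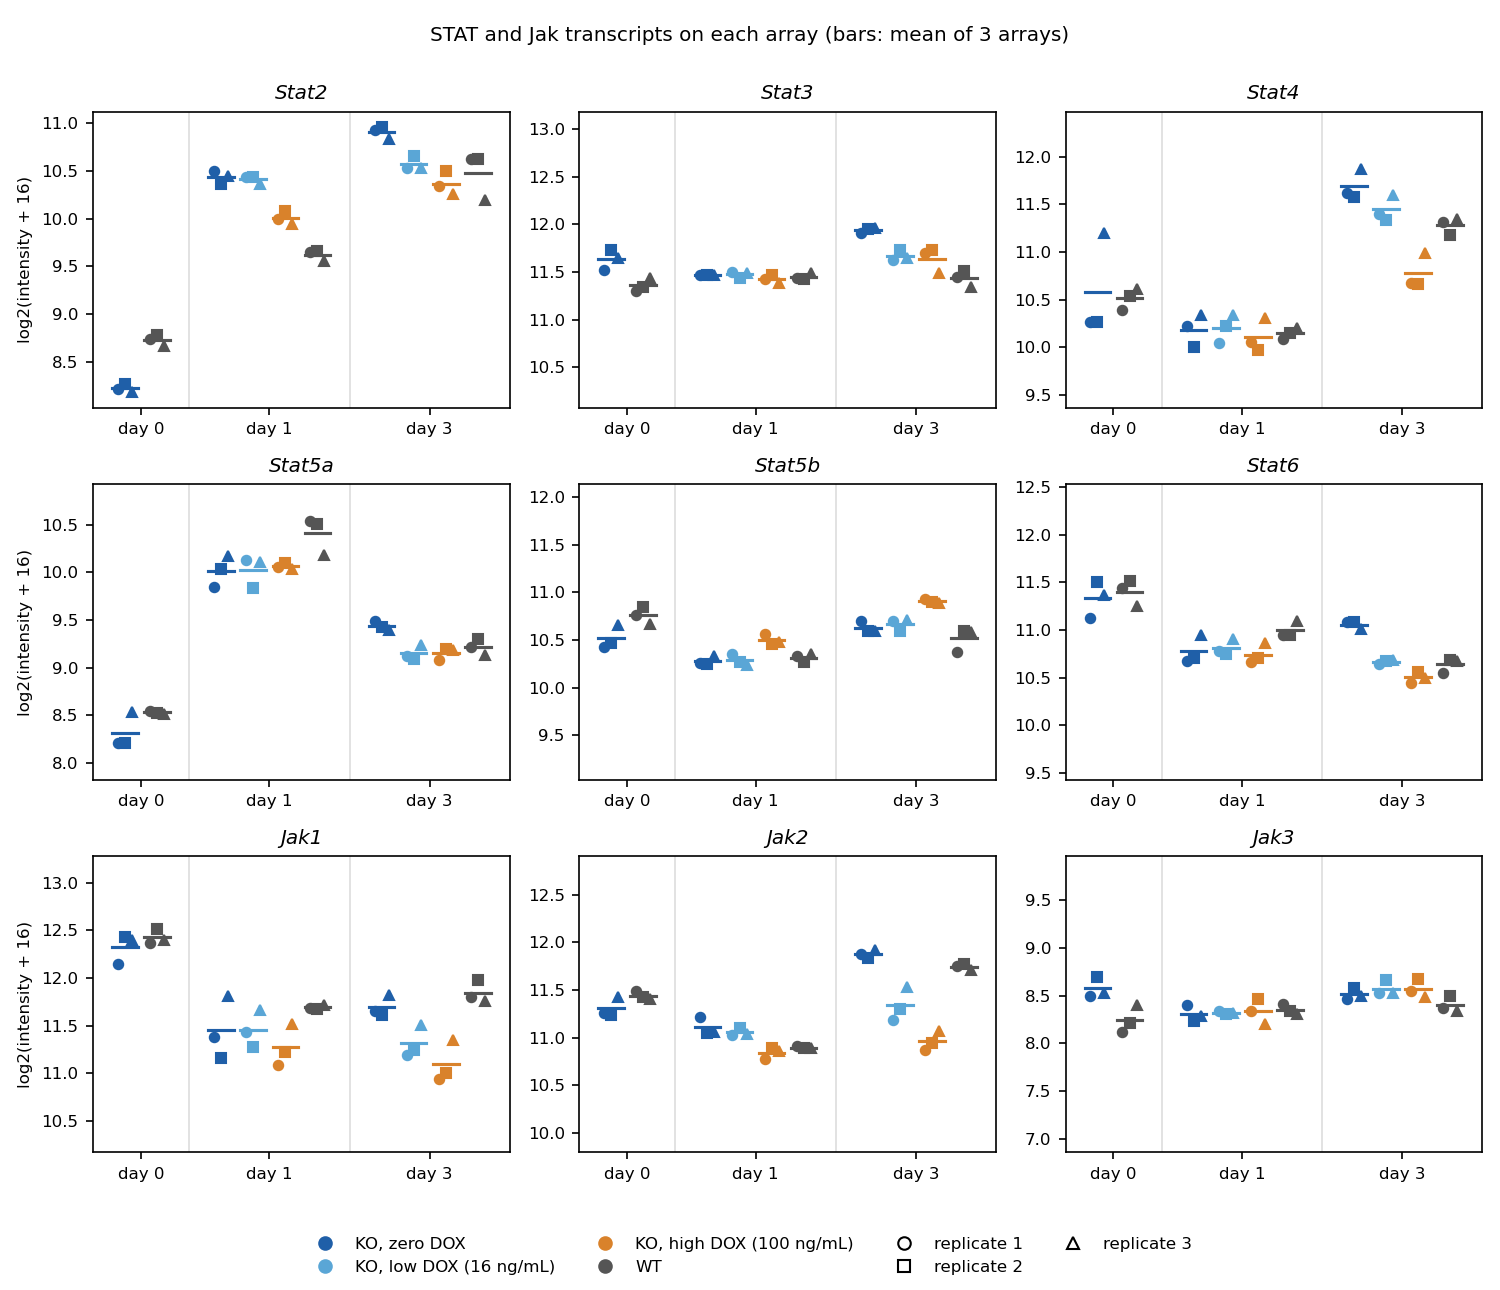
Level of each of the 9 transcripts on every array, as log2(intensity + 16), by day and group; each panel spans the same number of log2 units. Colours mark DOX dose and WT, symbols mark the replicate number, and bars are means of 3 arrays. Stat2 was lowest at day 0, Stat5a highest at day 1, and at day 3 Jak2 and Stat4 were lower with high than with zero DOX.

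Stat2 had the widest range of the 9 transcripts. Its protein pairs with Irf9 and another STAT to carry type I interferon signals. Its group means ran from 8.22 in KO cells at day 0 to 10.91 in KO cells with zero DOX at day 3. The stretch of 250 bases before its RefSeq start (chr10:128270248-128270497, plus strand, GRCm38.p6) was searched, on both strands, for 4 motifs. The STAT motifs were TTC and GAA with 3 or 4 bases between them, and the interferon-response motifs were GAAA or GGAA followed, after 2 bases, by GAAA. It is shown because 3 of these matched within 22 bases, overlapping each other, and the capitals mark that run.

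Stat2: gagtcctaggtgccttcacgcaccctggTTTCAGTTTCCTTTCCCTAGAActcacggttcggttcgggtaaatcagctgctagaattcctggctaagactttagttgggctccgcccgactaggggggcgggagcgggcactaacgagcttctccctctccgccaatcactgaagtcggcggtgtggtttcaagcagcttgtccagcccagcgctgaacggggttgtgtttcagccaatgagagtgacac

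Read from 222 bases before the start, the run holds TTTCAGTTTC (GAAA, 2 bases, GAAA on the minus strand), TTTCCTTTCC (GGAA, 2 bases, GAAA on the minus strand) and TTCCCTAGAA (TTC, 4 bases, GAA on both strands). Over 32851 RefSeq windows of this length, 2.98% held the GAAA motif, 2.3% the GGAA motif, 5.85% the STAT motif with 4 bases between and 7.02% that with 3. Of 12 such windows for the 9 genes, 2 held any match, and the other was a Stat4 window shown with that gene. A match describes these letters only and shows no binding.

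Stat2 stood at 8.21, 8.27 and 8.18 in the 3 KO arrays at day 0, against 8.74, 8.78 and 8.66 in WT arrays, so every KO array was below every WT array. At day 1 it stood at 10.50, 10.36 and 10.45 in KO arrays with zero DOX, against 9.65, 9.66 and 9.56 in WT arrays, and every KO array was now above every WT array. At day 3 it stood at 10.93, 10.96 and 10.84 in KO arrays with zero DOX, against 10.62, 10.62 and 10.20 in WT arrays, and the order held. The difference, KO with zero DOX minus WT, was -0.51 at day 0, 0.81 at day 1 and 0.43 at day 3 (SE 0.083 each; adjusted p 7.5e-05, 1.3e-07 and 0.00028, limma). The change of this difference was itself called: 1.32 from day 0 to day 1 and 0.94 from day 0 to day 3 (adjusted p 7.1e-08 and 5.9e-06). Without both day 1 arrays that went against their labels, the day 1 difference was 0.85 (adjusted p 1.4e-06). The female arrays alone gave -0.55 at day 0 and 0.36 at day 3, where the adjusted p values were 0.053 and 0.10.

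Stat2 was lower with high than with zero DOX at both days. At day 1 the arrays stood at 10.00, 10.08 and 9.94 with high DOX, against 10.50, 10.36 and 10.45 with zero DOX, which do not overlap, and at 10.44, 10.44 and 10.36 with low DOX, which overlap zero DOX. At day 3 they stood at 10.34, 10.50 and 10.26 with high DOX and 10.53, 10.66 and 10.53 with low DOX, against 10.93, 10.96 and 10.84 with zero DOX. The log2 difference from zero DOX was -0.43 with high DOX at day 1 (adjusted p 0.0069), and at day 3 it was -0.34 with low DOX and -0.54 with high DOX (adjusted p 0.0034 and 9.8e-06). The day 1 difference was -0.47 without both day 1 arrays (adjusted p 0.016), and its adjusted p was 0.059 without KO zero DOX day 1 replicate 1 and 0.050 without KO high DOX day 1 replicate 3. In the order of the 10 group means, 5 of 9 neighbouring groups had arrays that did not overlap. The second Stat2 set followed the first with r = 0.99 over the 10 group means, and gave 0.43 for KO zero DOX minus WT and -0.55 for high minus zero DOX at day 3. At day 0 that set stood at 7.69, 7.62 and 7.66 in KO arrays and at 7.61, 7.88 and 7.83 in WT arrays, which overlap. The separation of the genotypes at day 0 therefore rests on the first set, and the changes of the genotype difference from day 0 were smaller on the second.

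Transcripts of 14 interferon targets, of which 13 were tested, were mostly higher in KO cells with zero DOX than in WT cells after activation and mostly lower with high than with zero DOX at day 3. In KO cells with zero DOX against WT, 12 of 13 rose at day 1 (median 1.97, against 0.07 over all genes) and 11 of 13 at day 3 (median 1.28). Over all genes, 33.4% rose at day 1 and 18.8% at day 3. With high against zero DOX at day 3, 12 of 13 fell (median -1.16), and with low against zero DOX 6 of 13 fell (median -0.51). Over all genes, 23.8% and 17.5% fell in these comparisons. At day 1 high against zero DOX gave 3 of 13 that fell (median -0.61), where 1.16% of all genes fell. Without both doubtful arrays it gave 0 (median -0.56). Leaving out both of these arrays kept the count at 12 of 13 for KO with zero DOX against WT at day 1 (median 1.92). Stat2 and these targets did not always go together. In KO cells with high DOX against WT cells at day 3, 4 of 13 rose and 0 fell (median 0.23), where Stat2 gave -0.11 (adjusted p 0.33) and, without WT replicate 3, -0.25 (adjusted p 0.0054). Over all genes 21.7% rose there, and the 4 of 13 lie near that share. In KO cells with high DOX, 9 of 13 fell at day 3 against day 1 (median -0.86), where 26.5% of all genes fell. Stat2 rose there by 0.36 (adjusted p 0.00085). Ifit1, an RNA-binding effector, was higher by 2.55 at day 1 and 1.99 at day 3 in KO cells with zero DOX than in WT cells (adjusted p 5.8e-08 and 1.3e-06), and by 2.49 at day 1 without both doubtful arrays. Irf7, which drives type I interferon genes, was higher by 1.95 at day 3 (adjusted p 2.1e-08). The summed intensity of the 13 at day 1 ran from 58378 to 71170 in KO cells with zero DOX, against 19054 to 26012 in WT cells. At day 3 it ran from 28580 to 34286 with high DOX, against 49157 to 56052 with zero DOX. At day 0, before stimulation, 1 rose and 4 fell, among them Usp18, which restrains interferon receptor signalling, at -0.98. Over all genes 12.8% rose and 17.9% fell at day 0. Over the 10 group means the genes most like Stat2 were Cenpj (r = 0.9936), Tap1 (r = 0.9932) and Psmb9 (r = 0.9921). Tap1, a peptide transporter, and Psmb9, a proteasome subunit, serve antigen presentation, and Cenpj is a centriole protein. These correlations are descriptions over groups that share the same arrays.

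**Figure D2:**
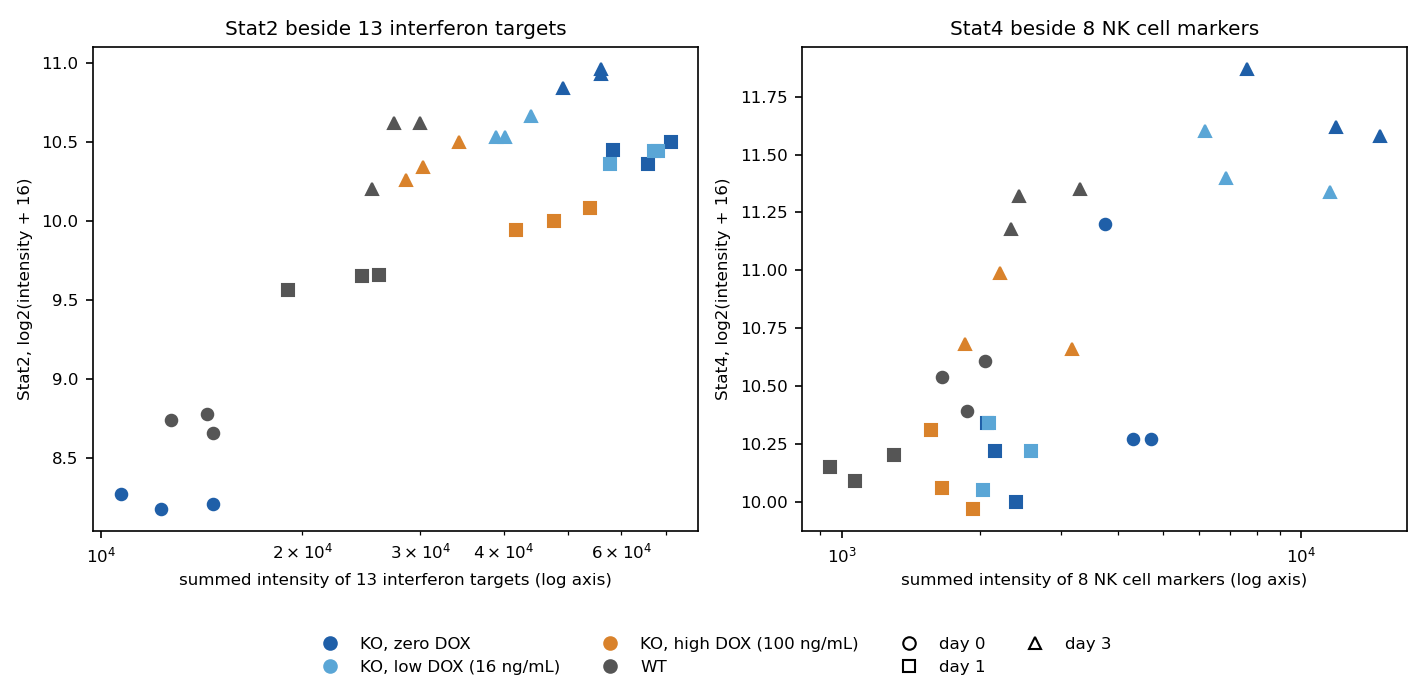
Stat2 beside the summed intensity of 13 interferon targets and Stat4 beside the summed intensity of 8 NK cell markers, with a point for each array; the horizontal axes are logarithmic. At day 3 both sums and both levels were higher with zero than with high DOX in KO cells, and 2 of the 3 KO day 0 arrays had low Stat4 with NK marker sums of 4292 and 4712.

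Stat5a, which with its close relative Stat5b carries IL-2 and IL-5 signals, rose by day 1 in both genotypes and then fell. At day 1 it stood at 9.85, 10.03 and 10.17 in KO arrays with zero DOX, against 8.21, 8.21 and 8.54 in KO arrays at day 0. In WT arrays it stood at 10.54, 10.51 and 10.18 at day 1, against 8.55, 8.53 and 8.52 at day 0. The rise from day 0 to day 1 was 1.70 in KO cells and 1.88 in WT cells (adjusted p 9.3e-14 and 1.3e-14), and the difference between these rises was not called (-0.18, SE 0.14, adjusted p 0.30). Without both doubtful day 1 arrays the KO rise was 1.69. By day 3 it had fallen again, to 9.49, 9.43 and 9.40 in KO cells with zero DOX and to 9.22, 9.30 and 9.13 in WT cells. The second Stat5a set gave a rise of 2.06 in WT cells at day 1, with group means of 7.35 at day 0 and 9.41 at day 1. In KO cells with zero DOX its means were 7.22 and 8.67, a smaller rise. How alike the genotypes are in this rise therefore depends on the probe set.

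At day 1 Stat5a was lower in KO cells with zero DOX than in WT cells (difference -0.39, SE 0.097, adjusted p 0.0024; -0.40 without both doubtful arrays), and the 3 KO arrays lay below the 3 WT arrays. The female arrays alone gave -0.24 (adjusted p 0.21). DOX at day 1 did not move it detectably: the high DOX arrays, at 10.06, 10.10 and 10.03, overlapped those with zero DOX. At day 3 low and high DOX each lay below zero DOX (differences -0.29 and -0.28, adjusted p 0.026 and 0.020). The high DOX call was lost without KO high DOX replicate 1 (-0.24, adjusted p 0.083) and without KO zero DOX replicate 1 (-0.26, adjusted p 0.066), and the low DOX call without any of 4 arrays, where the adjusted p ran from 0.060 to 0.086. The genes most like Stat5a over the 10 group means were Dnlz (r = 0.9924), Aar2 (r = 0.9921) and C330018D20Rik (r = 0.992). Dnlz encodes a mitochondrial chaperone partner and Aar2 a splicing factor.

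Stat5b, next to Stat5a on chromosome 11, moved the other way with dose. At day 3 it stood at 10.93, 10.90 and 10.89 with high DOX, against 10.70, 10.59 and 10.60 with zero DOX and 10.38, 10.60 and 10.58 in WT cells. The high DOX arrays lay above all 6 others. It was the only one of the 9 transcripts called higher with high than with zero DOX. The difference was 0.27 over zero DOX, 0.23 over low DOX and 0.38 over WT (adjusted p 0.00097, 0.016 and 3.2e-05). The low DOX comparison lost its call without KO high DOX replicate 1 (0.22, adjusted p 0.075) or KO low DOX replicate 2 (0.20, adjusted p 0.095), and its value was 0.19 with arrays centred on their medians. On activation Stat5b fell in WT cells (-0.45 at day 1), while its second, dimmer set rose by 0.42. The sets had r = 0.06 over the 10 group means, yet the second also gave 0.36 for high minus zero DOX (adjusted p 0.002). The direction of Stat5b on activation therefore depends on the probe set.

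Transcripts of 10 Stat5 targets were measured. With high against zero DOX at day 3, 6 rose and 3 fell (median 0.71), where 47.8% of all genes were called, 24.0% higher and 23.8% lower. Socs2, which dampens cytokine receptor signals, was higher by 3.08 and Pim2, a survival kinase, by 1.25, while Bcl6, the germinal centre repressor, differed by -1.42 and Cish, another inhibitor of the SOCS family, by -1.18. On activation of WT cells at day 1, 6 rose and 2 fell, with Bcl2l1, which guards against cell death, higher by 3.52 and Ccnd2, a cell cycle cyclin, by 2.75. The number called there lies near the share over all genes (81.3% called, 33.8% higher and 47.5% lower).

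Stat6 carries the IL-4 signal. It fell on activation in both genotypes, at day 3 to 11.08, 11.08 and 11.01 in KO cells with zero DOX, against 11.13, 11.50 and 11.37 in KO cells at day 0. In WT cells it stood at 10.55, 10.69 and 10.68 at day 3, against 11.44, 11.51 and 11.25 at day 0. The fall was -0.27 in KO cells and -0.76 in WT cells (adjusted p 0.0068 and 2.5e-08), and these falls differed by 0.49 (SE 0.12, adjusted p 0.0046). The KO fall was -0.19 without KO day 0 replicate 2 (adjusted p 0.065). The second Stat6 set did not fall at day 1 in WT cells (-0.01).

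At day 3 Stat6 was higher in KO cells with zero DOX than in WT cells, by 0.42 (SE 0.085, adjusted p 0.00046), and the arrays did not overlap. With DOX it was lower, at 10.64, 10.68 and 10.69 with low DOX and 10.45, 10.56 and 10.50 with high DOX. The log2 differences from zero DOX were -0.39 and -0.56 (adjusted p 0.0011 and 8.4e-06), and the second set gave -0.42 for high minus zero DOX. Against WT, high DOX gave no called difference for Stat6 at day 3. At day 1 KO cells with zero DOX were lower than WT cells (-0.22, adjusted p 0.037), a call that was lost without KO zero DOX day 1 replicate 1, 2 or WT day 1 replicate 3 (-0.17 to -0.19), and without both doubtful day 1 arrays (-0.19).

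Of 10 Stat6 targets, 9 were tested, and 8 fell with high against zero DOX at day 3 (median -1.18), where 23.8% of all genes fell. Cd86, a costimulatory ligand, differed by -1.64, Socs1, which blocks Jak kinases, by -1.60, Ccl22, a chemokine, by -1.26 and Fcer2a, the low-affinity IgE receptor, by -1.23. Of the same 9, 5 rose and 0 fell in KO cells with zero DOX against WT cells at day 3 (median 0.34), where 18.8% of all genes rose. All 9 had a limma test there, with Ccl22 higher by 2.27 and Socs1 by 1.22. B cell markers, whose list also holds Fcer2a, moved with these: 9 of 9 fell with high against zero DOX at day 3 (median -0.75). In that comparison 8 of 8 plasma cell markers rose (median 2.55), where 24.0% of all genes rose. The part of these markers in the Stat6 result was not tested.

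Stat4 is best known in T and NK cells, where IL-12 activates it. Its day 3 arrays read 11.62, 11.58 and 11.87 in KO cells given zero DOX, 11.40, 11.34 and 11.60 at the low dose and 10.68, 10.66 and 10.99 at the high dose, against 11.32, 11.18 and 11.35 in WT cells. The high DOX arrays lay below the 9 others, and low DOX overlapped both zero DOX and WT. The log2 difference was -0.91 for high minus zero DOX (SE 0.17, adjusted p 8.2e-05), -0.67 for high minus low DOX (adjusted p 0.0098) and -0.24 for low minus zero DOX (adjusted p 0.29). The second of these lost its call without KO high DOX replicate 1 (-0.62, adjusted p 0.057) or KO low DOX replicate 3 (-0.60, adjusted p 0.061). High DOX was lower than WT (-0.51, adjusted p 0.019), a call lost without either of KO high DOX replicates 1 and 2, without WT replicate 1 or 3 (-0.45 to -0.49), and with sex as a term (-0.27).

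At day 3, NK cell markers ranked the groups by median sum as Stat4 did by mean, but their sums with high DOX and in WT cells overlapped. Their list has 10 genes, of which 8 were tested, and at day 3 their summed intensity ran from 7621 to 14777 in KO cells given zero DOX, 6184 to 11543 at the low dose and 1854 to 3172 at the high dose, against 2341 to 3307 in WT cells. With high against low DOX 7 of 8 fell (median -1.54), where 5.61% of all genes fell. With low against zero DOX 1 rose and 1 fell, where 17.2% of all genes rose and 17.5% fell. Against WT cells, 7 rose and 0 fell with low DOX (median 1.31), and 1 rose and 0 fell with high DOX (median -0.14). Over all genes 18.2% rose with low DOX and 21.7% with high DOX. Against WT cells Stat4 was called with high DOX, as lower, and not with low DOX. Gzma, a granule protease, differed by -2.07 and Nkg7, a granule protein, by -1.81 for high minus low DOX. The untested Ncr1, which defines NK cells, stood between 6.43 and 8.20 on the 30 arrays. At day 0 the sum ran from 3742 to 4712 in KO cells, against 1650 to 2049 in WT cells, while Stat4 differed by 0.07 (adjusted p 0.80). That Stat4 value rested on KO day 0 replicate 3: without it the difference was -0.24 (adjusted p 0.12), and the female arrays alone, where it is the only KO array, gave 0.69 (adjusted p 0.0026). Of 10 T cell markers 5 were tested, and 3 of these fell with high against zero DOX at day 3 (median -0.46), where 23.8% of all genes fell. The part of NK and T cell RNA in the Stat4 result was not tested.

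Stat4 was highest at day 3. From day 0 to day 3 it rose by 1.11 in KO cells with zero DOX and by 0.77 in WT cells (adjusted p 3e-06 and 0.00029). The early fall in KO cells, -0.40 at day 1, rested on 1 array: KO day 0 stood at 10.27, 10.27 and 11.20, and without replicate 3 the difference was -0.09 (adjusted p 0.54). Without both doubtful day 1 arrays it was -0.30 (adjusted p 0.17). In WT cells the day 1 fall of -0.37 (adjusted p 0.048) lost its call when any of 5 arrays was left out, with adjusted p from 0.064 to 0.13. The genes most like Stat4 over the 10 group means were Wipf1 (r = 0.9687), Sys1 (r = 0.9645) and Pacsin1 (r = 0.9624). Wipf1 acts on the actin cytoskeleton, Sys1 in Golgi trafficking and Pacsin1 in membrane curvature.

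Stat4 has more than one RefSeq start, and the window before the downstream one (chr1:52007990-52008239, plus strand, GRCm38.p6) is printed since it is the other member window with a match. The capitals mark GAAAGTGAAA, a match to the GAAA motif on the plus strand, 97 to 88 bases before that start.

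Stat4: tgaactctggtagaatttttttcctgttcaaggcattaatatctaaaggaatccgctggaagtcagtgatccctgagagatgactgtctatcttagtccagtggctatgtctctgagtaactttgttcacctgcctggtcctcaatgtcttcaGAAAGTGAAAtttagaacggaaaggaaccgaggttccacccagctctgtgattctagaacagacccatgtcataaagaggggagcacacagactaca

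Stat3, which IL-6, IL-10 and IL-21 activate, had the smallest range of the STATs on its brightest set. At day 3 it stood at 11.91, 11.95 and 11.96 in KO cells with zero DOX, against 11.45, 11.51 and 11.34 in WT cells. That difference of 0.51 (SE 0.059, adjusted p 5.5e-07) came with arrays that did not overlap, and a second set gave 0.50. It was lower than with zero DOX by either dose (-0.27 with low and -0.30 with high DOX, adjusted p 0.0011 and 0.00021), at 11.63, 11.73 and 11.65 with low DOX and 11.70, 11.73 and 11.49 with high DOX. KO cells with zero DOX were also higher than WT cells at day 0, by 0.27. Another Stat3 set fell after activation (-1.75 in WT cells at day 1), where the brightest set gave 0.09, and it had r = 0.19 with the brightest set. The dimmest set stayed between 8.34 and 8.49 in its group means. All sets other than the dimmest were lower with high than with zero DOX at day 3.

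With high against zero DOX at day 3, where 47.8% of all genes were called, 3 of 8 Stat3 targets rose and 2 fell. Those were led by Prdm1, the plasma cell repressor, higher by 3.20, while Hif1a, the hypoxia factor, differed by -0.57 and Bcl3, a partner of NF-kB, by -0.79. Prdm1 was lower in KO cells with zero DOX than in WT cells at day 3 (-1.70, adjusted p 5.3e-07).

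Among the kinases, Jak2, which serves the IL-5 receptor, changed most with dose. At day 3 it stood at 11.88, 11.83 and 11.92 in KO cells given zero DOX, 11.19, 11.30 and 11.53 at the low dose and 10.87, 10.94 and 11.07 at the high dose, against 11.75, 11.77 and 11.71 in WT cells. No dose overlapped another, and WT lay between zero and low DOX. High minus zero DOX was -0.92 (SE 0.07, adjusted p 1.8e-10), a 1.89-fold lower value of intensity + 16, low minus zero DOX was -0.54 (adjusted p 3e-06) and high minus low DOX was -0.38 (adjusted p 0.00074). The second Jak2 set gave -1.07, -0.59 and -0.48 for these steps, all called. At day 1 high minus zero DOX was -0.27, with adjusted p 0.052, 0.022 with the replicate number as a block within genotype, and 0.084 without both doubtful day 1 arrays (-0.30). The dose effect at day 3 minus that at day 1 was -0.66 (SE 0.099, adjusted p 2.9e-05).

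On activation Jak2 first fell and then rose. In WT cells it stood at 10.91, 10.89 and 10.89 at day 1, against 11.49, 11.43 and 11.40 at day 0, a difference of -0.55 (adjusted p 1.6e-07). In KO cells with zero DOX the day 1 fall was -0.20 (adjusted p 0.013), and it lost its call without KO day 0 replicate 3 or KO day 1 replicate 2 or 3 (-0.14 to -0.18) and without both doubtful day 1 arrays (-0.17). The interaction of genotype and day was 0.35 (adjusted p 0.008; 0.38 without both doubtful arrays), but the second set gave -0.36 for the same interaction (adjusted p 0.032), so its direction depends on the probe set, and the value of the first was 0.18 and not called with arrays centred on their medians. From day 0 to day 3 both genotypes rose, by 0.57 in KO cells with zero DOX and 0.30 in WT cells.

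Jak1, used by the receptors for IL-2, IL-4 and the interferons, was highest at day 0. It stood there at 12.15, 12.43 and 12.40 in KO arrays and at 12.37, 12.51 and 12.40 in WT arrays, which overlap. By day 1 it had fallen, with differences of -0.88 in KO cells with zero DOX and -0.73 in WT cells (adjusted p 5.7e-06 and 5.2e-05). Without both doubtful arrays the KO difference was also -0.73. By the dimmest Jak1 set, WT means were 10.90 at day 0, 10.72 at day 1 and 10.77 at day 3. On that set the WT arrays of day 0 overlapped those of both later days. Its KO means with zero DOX were 11.00, 10.12 and 10.56 at these days. The size of the WT fall therefore depends on the probe set. At day 3 it stood at 10.94, 11.00 and 11.35 with high DOX and 11.19, 11.25 and 11.51 with low DOX, against 11.65, 11.61 and 11.82 with zero DOX, so both doses lay below zero DOX. High minus zero DOX was -0.60 (SE 0.14, adjusted p 0.0012), and the other Jak1 sets gave -0.63 and -0.74. Low minus zero DOX was -0.38 (adjusted p 0.044), a call lost when any of 5 of the 6 arrays was left out (-0.31 to -0.42). KO cells with high DOX were lower than WT cells at day 3 (-0.75), while KO cells with zero DOX gave -0.15, which was not called.

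Jak3, which pairs with the shared gamma chain of the IL-2 and IL-4 receptors, moved least, with group means between 8.24 and 8.57. At day 0 it stood at 8.50, 8.70 and 8.53 in KO arrays, against 8.12, 8.21 and 8.40 in WT arrays, which do not overlap (0.33, SE 0.076, adjusted p 0.0021). The female arrays alone gave 0.28 (adjusted p 0.16). No dose comparison called it, and none of its neighbouring group means were free of overlap between arrays.

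**Figure D3:**
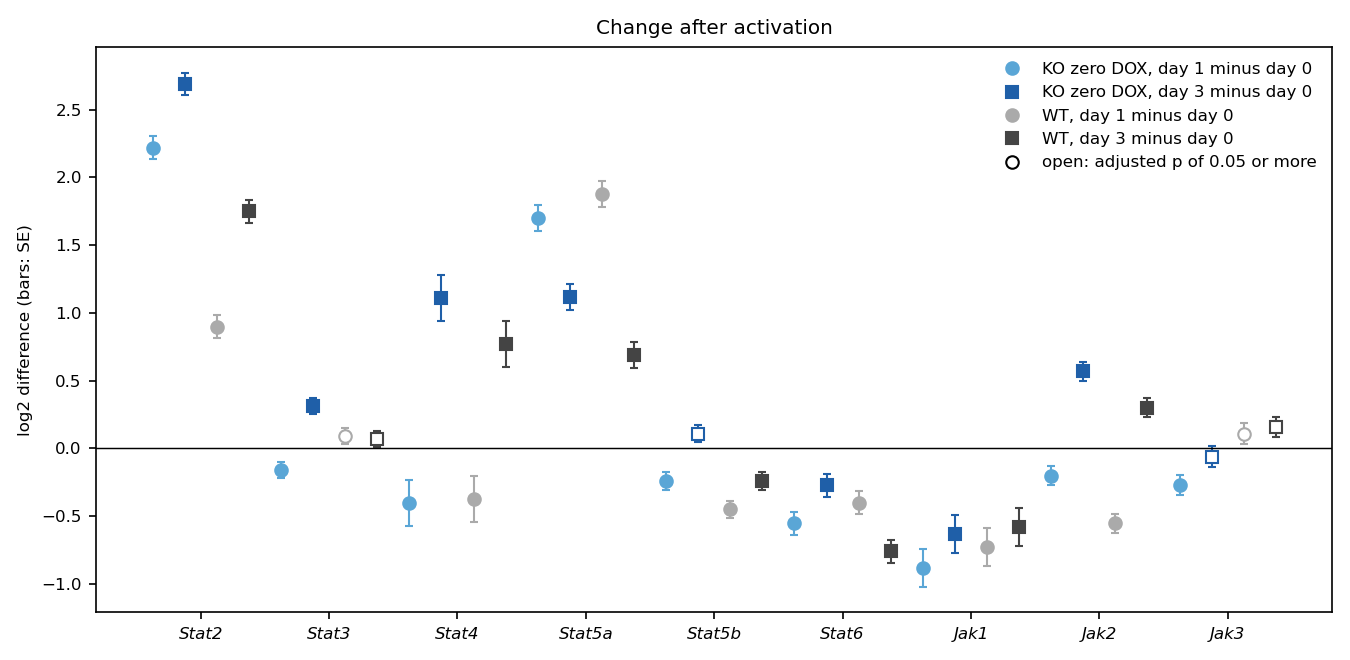
Log2 difference from day 0 for the 9 transcripts in KO cells with zero DOX and in WT cells, with limma's SE; filled symbols are called, open symbols are not. Stat2 and Stat5a rose at both days, Stat6 and Jak1 fell at both days, and the differences of Stat4 and Jak2 lay below 0 at day 1 and above 0 at day 3.

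Read as a family, activation moved most of the 9 transcripts, as it did most genes. From day 0 to day 1, 9 of 9 were called in KO cells with zero DOX (2 higher, 7 lower; 69.7% of all genes were called, 39.7% higher) and 7 of 9 in WT cells (2 higher, 5 lower; 81.3%, 33.8% higher and 47.5% lower). Without both doubtful day 1 arrays the KO count was 7. From day 0 to day 3, 7 were called in KO cells (5 higher, 2 lower; 62.3%, 35.9% higher and 26.3% lower) and 7 in WT cells (4 higher, 3 lower; 65.0%, 33.3% higher and 31.7% lower). From day 1 to day 3, 8 were called in KO cells with zero DOX (7 higher, 1 lower; 51.8%, 25.5% higher and 26.3% lower), and 7 without both doubtful arrays, where Jak3 (0.17, adjusted p 0.12) lost its call. In KO cells with high DOX 7 were called (5 higher, 2 lower; 49.1%, 22.6% higher and 26.5% lower), and in WT cells 6 (4 higher, 2 lower; 68.8%, 42.9% higher and 25.9% lower). Between 49.1% and 81.3% of all genes were called in these comparisons, and the counts are not read as particular to the family. Centring each array on its median moved the median of all genes by 0.16 in the WT day 1 comparison, and there the call for Stat4 was lost and Jak3 and Stat3 were called higher.

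The comparison of high with zero DOX at day 3 called 8 of 9 (1 higher, 7 lower), where 47.8% of all genes were called, 24.0% higher and 23.8% lower. The median of the 9 differences was -0.54, against 0.00 over all genes. Leaving out each array in turn gave 7 or 8. Low against zero DOX called 6, all lower (34.7%, 17.2% higher and 17.5% lower), and high against low DOX called 3 (11.7%, 6.13% higher and 5.61% lower): Jak2, Stat4 and Stat5b, with Stat2 added at -0.20 under the replicate block within genotype (adjusted p 0.03). At day 1 high against zero DOX called Stat2 alone (2.12%, 0.960% higher and 1.16% lower). With the replicate block within genotype 3 were called there, Jak2 and Stat5b (0.22, adjusted p 0.046) being the others. Low against zero DOX at day 1 called 0 of 9 and 0 of all genes by limma (0%). At an unadjusted p under 0.05 the counts were 0 of 9 members and 32 of 12183 genes. Without both doubtful day 1 arrays 0 members were called and the differences ran from -0.10 for Jak2 to 0.11 for Stat5a.

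**Figure D4:**
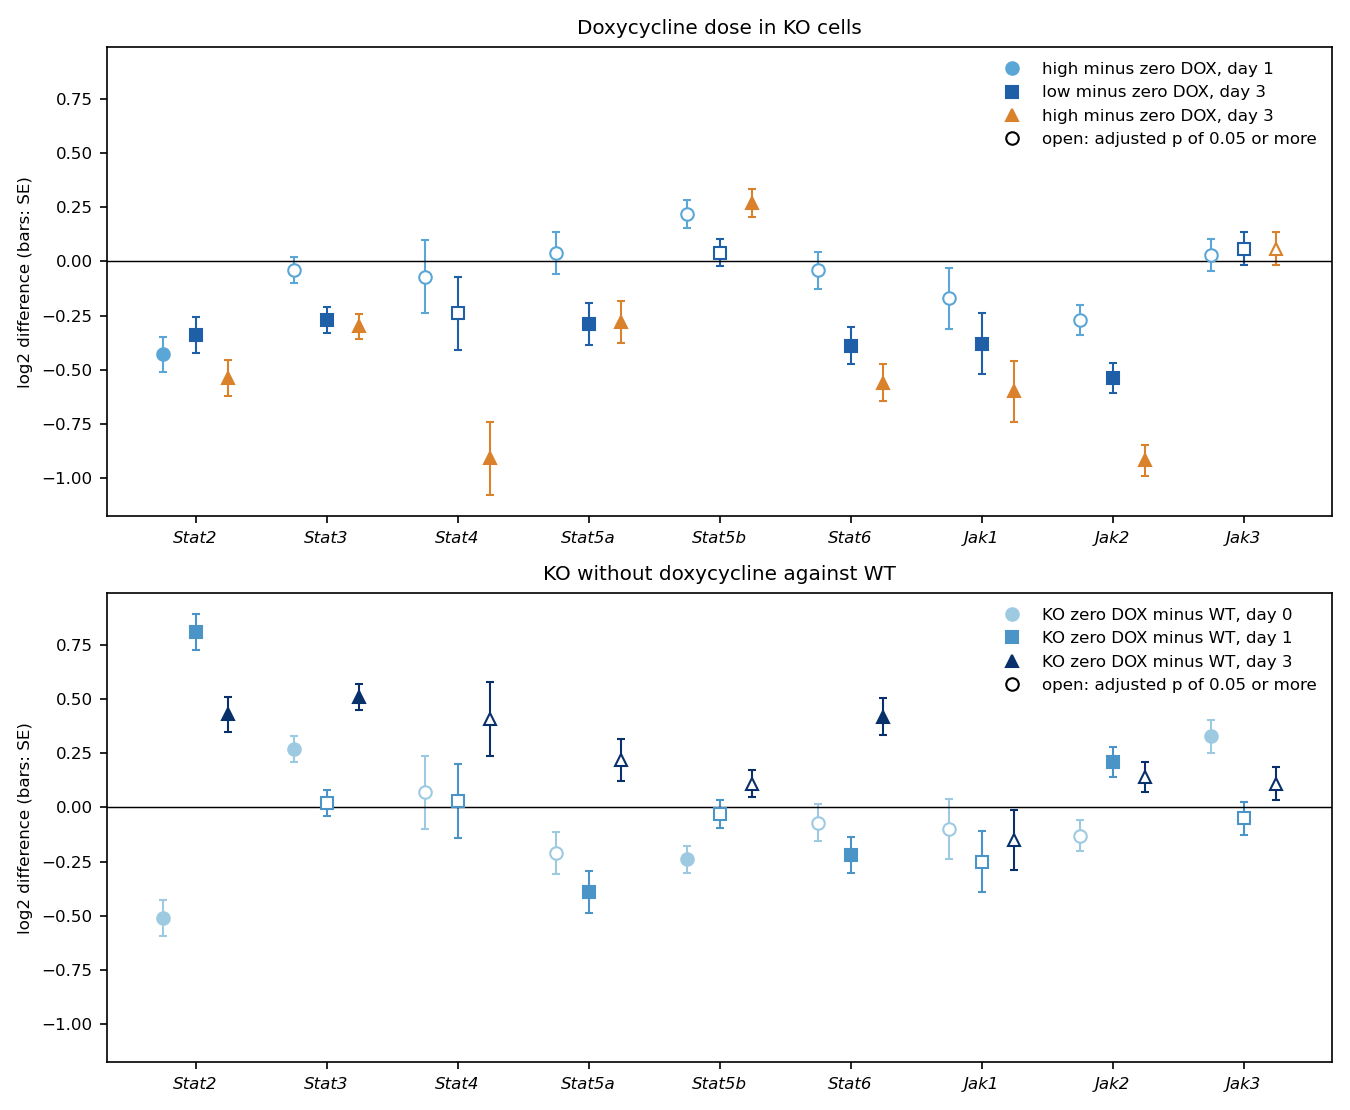
Upper panel: log2 difference from zero DOX in KO cells for the 9 transcripts. Lower panel: log2 difference between KO cells with zero DOX and WT cells at each day. Bars are limma's SE, filled symbols are called and open symbols are not. Jak2 and Stat4 have the largest falls with high DOX at day 3, Stat5b rises, and Stat2 changes sign against WT between day 0 and day 1.

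Whether the dose effect differed between the days was tested as an interaction that was added after values were seen. For high against zero DOX it called 4 of 9, all more negative at day 3 (24.9% of all genes called, 11.8% higher and 13.1% lower): Stat4 (-0.85), Jak2 (-0.66), Stat6 (-0.52) and Stat3 (-0.26). With the replicate block within genotype Jak1 (-0.43, adjusted p 0.0094) and Stat5a (-0.33, adjusted p 0.048) were added. Without both doubtful day 1 arrays the values were -0.75 for Stat4 (adjusted p 0.043), -0.62 for Jak2 (adjusted p 0.00022) and -0.48 for Stat6 (adjusted p 0.01), and Stat3 stood at -0.26 with adjusted p 0.054. For Stat2, whose dose effect was called at both days, the interaction was -0.11 (adjusted p 0.57).

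KO cells with zero DOX against WT cells called 4 of 9 at day 0 (30.7% of all genes, 12.8% higher and 17.9% lower). The count was 4 at day 1 (48.6%, 33.4% higher and 15.2% lower) and 3 at day 3 (34.5%, 18.8% higher and 15.7% lower). At day 0 Jak3 and Stat3 were higher and Stat2 and Stat5b lower; at day 1 Stat2 and Jak2 were higher and Stat5a and Stat6 lower; at day 3 Stat2, Stat3 and Stat6 were higher. Without both doubtful day 1 arrays the day 1 count was 3. With sex as a term the day 3 count was 6, adding Stat4 (0.64), Stat5a (0.30) and Jak2 (0.20). Jak2 at day 1 was 0.07 and not called with arrays centred on their medians, a setting that moved the median of all genes by -0.14. By the second Jak2 set the day 1 means were 9.66 in KO cells with zero DOX and 9.68 in WT cells. These arrays overlapped, so the day 1 call of Jak2 rests on the first set. The interaction of genotype with day called 4 of 9 at day 1 (43.0%, 31.8% higher and 11.2% lower), namely Stat2, Jak2, Jak3 and Stat3, and 5 of 9 at day 3 (24.8%, 15.3% higher and 9.58% lower), namely Stat2, Stat3, Stat5a, Stat5b and Stat6, all 5 more positive in KO cells. The day 1 values of Jak2 and Stat3 depended on the probe set. Without both doubtful arrays the day 1 count was again 4, with Stat2 at 1.36 and Jak3 at -0.34. In the female arrays alone, Stat2 was the only one of those named whose interaction kept its call, at 1.37 for day 1 and 0.91 for day 3 (adjusted p 0.0057 and 0.029), and Stat4 was called in addition for day 1 (-0.50, adjusted p 0.044).

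DOX did not bring all 9 to WT levels. At day 3 KO cells with high DOX and WT cells differed in 5 of 9 (40.3% of all genes, 21.7% higher and 18.6% lower): Jak1 (-0.75), Jak2 (-0.78) and Stat4 (-0.51) were lower, and Stat3 (0.21) and Stat5b (0.38) were higher. Stat3 lost its call without KO high DOX replicate 2 or WT replicate 3 (0.16, adjusted p 0.061 and 0.054) and in a fit of only the groups compared (adjusted p 0.079), and the female arrays alone gave 0.06 (adjusted p 0.70). In the female arrays Stat4 stood at -0.29 (adjusted p 0.067), while Jak1 (-0.50), Jak2 (-0.67) and Stat5b (0.37) were called. KO cells with low DOX and WT cells differed in 3 of 9 (33.0%, 18.2% higher and 14.8% lower): Jak1 (-0.53), Jak2 (-0.40) and Stat3 (0.23). The female arrays alone gave -0.33 for Jak1 (adjusted p 0.041), -0.21 for Jak2 (adjusted p 0.055) and 0.21 for Stat3 (adjusted p 0.13). At day 1 KO cells with high DOX and WT cells differed in 5 of 9 (38.6%, 29.1% higher and 9.46% lower), with Stat2 at 0.38. These comparisons share the WT or KO arrays with those above.

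Receptors and inhibitors of the pathway are set here against the 34.5% of all genes called in KO with zero DOX against WT and the 47.8% called with high against zero DOX at day 3. A list of 8 genes holds receptors of the added cytokines and a related chain, and 6 of them were tested. At day 3, 4 of these 6 rose and 0 fell in KO cells with zero DOX against WT cells by limma (median of the 6 genes 0.50). They were led by Csf2rb2 at 1.88 and Il2ra, the IL-2 receptor alpha chain, at 0.68. Csf2rb2 is a beta chain related to that of the IL-5 receptor and is not that chain itself. With high against zero DOX 1 rose and 3 fell (median -0.37): Il2ra rose by 1.13, and Csf2rb2 (-1.45), Il4ra, the IL-4 receptor (-0.50), and Il2rb (-0.24) fell. Of 14 tested receptors for other cytokines, 5 rose and 7 fell (median -0.31). Il6ra, the IL-6 receptor, rose by 2.14 and its signalling partner Il6st by 1.20, while Il10ra, the IL-10 receptor, differed by -1.32 and Il27ra, the IL-27 receptor, by -1.29.

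Of 18 inhibitors, 10 rose and 2 fell in KO cells with zero DOX against WT cells at day 3 (median 0.26, against 0.00 over all genes). With high against zero DOX 1 rose and 8 fell (median -0.10), a share of 9 in 18 that lies near the share over all genes. Socs1 was higher by 1.22 in the first comparison and differed by -1.60 in the second. Socs2 went the other way, with -1.04 in the first and 3.08 in the second. Sh2b3, an adaptor that restrains Jak2, differed by -0.89 with high against zero DOX. Several of these genes stand in more than one list.

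Over the 10 group means the 9 transcripts did not form one pattern. Jak1 and Stat6 were the most alike (r = 0.88), then Jak2 and Stat4 (r = 0.81), while Stat2 ran against both Jak1 and Stat6 (r = -0.77 each). The neighbours Stat5a and Stat5b had r = -0.66. These are descriptions over 10 groups that share arrays and culture days.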

How the data were processed

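For each of 30 arrays the deposited table gives a linear intensity per probe set. The authors normalized them in D-Chip with a model of perfect-match probes, per the series text. MAS5 is listed among the tools of the submitters' processing notes. All columns matched a sample by title. Intensities spanned 1 to 30619.06, with array medians from 171.4 to 199.7.

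Here 16 was added and log2 taken, with no further normalization. Sets with at least 3 arrays above the table's median of 188.2 were tested (26095 of 45101, without 64 controls). By GEO's platform annotation, 34945 sets had 1 symbol, 932 several and 9160 none, and 34741 matched RefSeq (GRCm38.p6). Group means were estimated jointly from the 30 arrays with limma 3.58.1 (R 4.3.3) (20 residual degrees of freedom), two-sided, with Benjamini-Hochberg adjustment over all tested sets. With 3 arrays a group, the smallest p of an exact permutation test is 0.1. The fit was tested on simulated arrays with independent noise, which does not cover the shared deviations of same-numbered KO arrays.

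Within KO, same-numbered arrays deviated together (63 of 63 pairs, r from 0.303 to 0.845), so numbers pair KO arrays. Across genotypes they did not (7 of 63 pairs over 0.1). The fit has no block for this. The series text gives replicates of a group as individual mice, though 30 arrays need not be 30 mice. In each group 1 of 3 was handled at another time (not said which). Sex was read from sex-linked transcripts.

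Named genes were all 9 members, up to 4 called genes of largest change per list, and for the 3 members of widest range the 3 genes of highest r. Members and lists were chosen with earlier results of these data known. Promoter sequences are from RefSeq.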

Additional observations from a re-analysis of the deposited data

Results flagged for a closer look

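Results stand here because the effect differed between days or genotypes by a test of the difference itself. For the dose effect (high minus zero DOX), day 3 minus day 1, the differences were -0.85 for Stat4, -0.66 for Jak2, -0.52 for Stat6 and -0.26 for Stat3. For the change from day 0 to day 1, KO with zero DOX minus WT, they were 1.32 for Stat2, 0.35 for Jak2, -0.25 for Stat3 and -0.38 for Jak3. For the change from day 0 to day 3 they were 0.94 for Stat2, 0.49 for Stat6, 0.43 for Stat5a, 0.35 for Stat5b and 0.24 for Stat3. All have adjusted p under 0.05 by limma. Leaving out 1 array ended the Stat5a call for day 3 in 4 of 12 cases (adjusted p 0.052 to 0.072), the Stat3 call of the dose effect in 4 of 12 (0.051 to 0.097) and the Stat3 call for day 1 in 2 of 12 (0.052 and 0.061). In the female arrays alone only Stat2 among the genotype differences named kept its calls (1.37 and 0.91), and Stat5a stood at 0.17 for day 3 (adjusted p 0.60). The day 3 differences of Stat2, Stat5a, Stat5b and Stat6 were smaller on their second sets. For Stat5a that set had means of 7.22 and 8.25 at days 0 and 3 in KO cells with zero DOX, against 7.35 and 8.19 in WT cells. The second Jak2 set went the other way in the day 1 genotype difference (-0.36), and the Stat3 difference at day 3 lost its call when any of 8 of its 12 arrays was left out. The Stat3 difference for day 1 was smaller on the set most like its brightest (r = 0.96). That set had means of 11.26 and 11.15 at days 0 and 1 in KO cells with zero DOX, against 11.11 and 11.06 in WT cells.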

How the results depend on the processing

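Of 3627 values of single transcripts under the alternatives, 3312 kept direction and side of the threshold, 73 gained a call, 153 lost one, and 89, belonging to 43 results, changed sign, none of them called in either setting. For members called with high against zero DOX at day 1 (1 in the report), an offset of 64, the stricter filter, 1 probe set a gene, sex as a term and the replicate block across genotypes each gave 2, the replicate block within genotype and array weights each gave 3, and a fit of only the groups compared gave 0. A fit of only the groups compared gave 1 for KO zero DOX minus WT at day 0, 5 at day 3, 1 for high against low DOX at day 3 and 3 for genotype by day 3. Sex as a term gave 6 for KO zero DOX minus WT at day 3 and 3 for KO high DOX minus WT at day 1. Array weights gave 6 for KO zero DOX minus WT and 5 for KO low DOX minus WT at day 3. Quantile normalization gave 3 for genotype by day 3. Female arrays alone gave 1 for KO zero DOX minus WT at days 0 and 1, 1 and 3 for KO high DOX minus WT at days 1 and 3, 1 for KO low DOX minus WT, and 2 and 1 for genotype by day 1 and day 3. Values shrank there too: Stat6 for KO zero DOX minus WT at day 1 was -0.05 (-0.22 with all arrays), Stat5b at day 0 was -0.10 (-0.24), Stat3 for KO high DOX minus WT at day 3 was 0.06 (0.21) and Jak1 at day 1 was -0.17 (-0.42), and the 1 called at day 0 was Stat4, none of the 4 called with all arrays. The replicate block within genotype also called Jak1 for KO zero DOX day 3 minus day 1 (0.24, adjusted p 0.019) and Jak3 for WT day 3 minus day 0 (0.16, adjusted p 0.049), and beside the calls given with the results it changed no other. The cause of these losses was not tested.

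Leaving out each array in turn gave 0 to 1 for high against zero DOX at day 1, 7 to 8 at day 3, 4 to 6 for low against zero and 1 to 3 for high against low DOX at day 3. For KO zero DOX minus WT it gave 4 to 6 at day 0, 2 to 5 at day 1 and 3 at day 3. For KO high DOX minus WT it gave 2 to 5 at day 1 and 3 to 5 at day 3, for genotype by day 3 to 5 (day 1) and 3 to 7 (day 3), and for dose by day 3 to 6. Without KO day 0 replicate 3, Stat5a differed from WT at day 0 by -0.32 and Jak2 by -0.19, both called. The second Jak2 set went the other way. With all arrays it stood at 10.24, 10.18 and 10.12 in KO cells at day 0, against 9.78, 9.89 and 9.86 in WT cells. The direction of Jak2 at day 0 therefore depends on the probe set. Centring arrays on their medians moved the share of higher calls over all genes: for KO zero DOX minus WT at day 1 it was 68.7% and 38.1% when centred, for WT day 1 minus day 0 41.6% and 52.3%, for WT day 3 minus day 1 62.3% and 47%, for KO high DOX minus WT at day 1 75.5% and 41.3%, and for genotype by day 1 73.9% and 42.8%. Female arrays alone, both day 1 arrays left out, and dose by day were added after seeing the data.

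The values that changed sign, none of them called, were these. With arrays centred on their medians KO zero DOX minus WT at day 1 was -0.12 for Stat3 and -0.11 for Stat4, high minus low DOX was -0.04 for Stat5a, Jak3 for WT day 3 minus day 1 was -0.07 (-0.04 with quantile normalization) and its dose by day value was -0.01. With sex as a term KO zero DOX minus WT was 0.11 for Jak1 at day 0, 0.00 for Stat3 at day 1 and 0.05 for Jak1 at day 3, KO high DOX minus WT was 0.01 for Jak2 and 0.20 for Stat4 at day 1 and 0.01 for Stat5a at day 3, and KO low DOX minus WT was 0.01 for Stat5a. Array weights gave -0.05 for Stat4 in KO zero DOX minus WT at day 0, -0.01 for Stat4 and -0.02 for Stat5b in low minus zero DOX at days 1 and 3, 0.01 for Stat3 in WT day 3 minus day 1, 0.05 for Jak3 and 0.01 for Stat3 in KO high DOX minus WT at day 1, and 0.06 for Stat4 in genotype by day 1. Without both day 1 arrays Jak3 was -0.01 in high minus zero and in low minus zero DOX at day 1, where Jak1 was -0.05 and Stat4 -0.08, and Stat4 was 0.06 in genotype by day 1. Female arrays alone gave 0.01 for Stat5a at day 0 and 0.12 for Jak1 and 0.02 for Stat5b at day 1 in KO zero DOX minus WT, 0.16 for Stat4 in KO high DOX minus WT at day 1, 0.02 for Stat5a in KO low DOX minus WT, 0.15 for Jak1 in genotype by day 1, and 0.00 for Jak1 and -0.10 for Stat4 in genotype by day 3. With each array left out in turn, high minus zero DOX at day 1 ran from -0.32 to 0.01 for Jak1, -0.03 to 0.10 for Jak3, -0.16 to 0.01 for Stat4, -0.04 to 0.12 for Stat5a and -0.09 to 0.05 for Stat6. Low minus zero DOX at day 1 ran from -0.14 to 0.19 for Jak1, -0.08 to 0.00 for Jak2, -0.02 to 0.07 for Jak3, -0.07 to 0.01 for Stat2, -0.01 to 0.02 for Stat3, -0.07 to 0.10 for Stat4 and Stat5a, -0.02 to 0.03 for Stat5b and -0.02 to 0.12 for Stat6. High minus low DOX at day 3 ran from -0.06 to 0.04 for Jak3, -0.07 to 0.05 for Stat3 and -0.02 to 0.05 for Stat5a. KO zero DOX minus WT ran from -0.24 to 0.22 for Stat4 and -0.15 to 0.03 for Stat6 at day 0 and -0.04 to 0.13 for Stat4 at day 1. KO high DOX minus WT at day 1 ran from -0.08 to 0.05 for Jak3 and -0.13 to 0.04 for Stat4, and KO low DOX minus WT from -0.05 to 0.17 for Stat2 and -0.02 to 0.06 for Stat6. Jak3 ran from -0.10 to 0.00 for KO zero DOX day 3 minus day 0 and -0.04 to 0.09 for dose by day, Stat3 from -0.06 to 0.03 for WT day 3 minus day 1, Stat4 from -0.19 to 0.28 for genotype by day 1 and Jak1 from -0.14 to 0.01 for genotype by day 3.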
